A study of Arabidopsis thaliana with 24 samples.

Results

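Cytosolic ribosomal protein genes encode the proteins of the ribosomes that work outside chloroplasts and mitochondria. The set held 43 of the 33557 genes in each deposited table. Its rule used gene identifiers and no measured values, but it was chosen with earlier results of these data known. It comprised 23 genes for proteins of the large (60S) subunit and 20 for proteins of the small (40S) subunit, from 26 protein families. In 14 of these families more than 1 gene was in the set, and those families held 31 of the 43 genes. The sums and shares given for the set leave out any gene of this class outside the 43.

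Messenger RNA of Arabidopsis thaliana was sequenced in 24 samples, 3 biological repeats in each of 8 groups, from seedlings grown in darkness for 4 days. Wild type cotyledons (seed leaves) and wild type hypocotyls (the seedling stem) were taken separately in the dark, after 1 h and after 6 h under white light with 70 µmol of photons per square metre each second. The other 2 groups were dark cotyledons and dark hypocotyls of pifq, a name used for plants that lack PIF1, PIF3, PIF4 and PIF5, transcription factors that repress light responses in darkness. All seeds, pifq included, had received 3 h of white light and then 5 min of far-red light before the dark period.

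The cytosolic ribosome makes most proteins of the plant cell, and each of its proteins is present in a fixed number per particle. Plants carry small families of nearly equivalent genes for most of these proteins, so the dose of a protein is the sum over its gene copies. In young organs, transcripts of these genes are typically abundant where cells divide and grow, and light that opens and expands cotyledons is known to raise them, while the hypocotyl slows its elongation in light.

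Each table held 1 value per group in FPKM (fragments scaled to transcript length and library size), so no spread between the 3 samples could be computed. A gene was said to have risen or fallen where the authors' deposited table gave a q-value under 0.05. Changes are log2 folds of the group values, and their standard errors (SE) were recovered from the authors' statistic. All 43 genes had been tested in all 6 tables. The tables hold between 18998 and 20441 tested genes, and the depth of the libraries is unknown. In such bulk samples, fewer cells with a transcript and less transcript per cell cannot be told apart.

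The bases upstream of 4 genes are shown, because these genes mark the extremes of the light response and 1 of the families whose copies had different folds. AT1G70600 (chromosome 1, 26620923 to 26621659 in the tables, TAIR10), of the L18e/L15 superfamily, had the largest and AT2G40010 (chromosome 2, 16708056 to 16710448), of the L10 family to which the stalk protein P0 belongs, the smallest fold of the set after 6 h of light in cotyledons. RPS6A (AT4G31700, chromosome 4, 15346072 to 15347727) and RPS6B (AT5G10360, chromosome 5, 3258474 to 3260234) encode the small subunit protein S6, a substrate of S6 kinase in the TOR growth pathway. The sequences run 5′ to 3′ and end at the base before the RefSeq gene start of the TAIR10.1 assembly, at chr1:26621780-26621898, chr2:16710773-16710928, chr4:15347805-15348054 and chr5:3260255-3260504, all on the minus strand. The first pair stops where a neighbouring gene begins, and for all 4 genes the RefSeq start lies upstream of the gene end given in the tables. Capitals mark site II elements (TGGGCC or TGGGCT, either strand), a motif known from growth-related promoters of plants.
AT1G70600: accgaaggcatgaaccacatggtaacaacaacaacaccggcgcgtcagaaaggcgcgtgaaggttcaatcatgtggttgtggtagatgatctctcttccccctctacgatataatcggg
AT2G40010: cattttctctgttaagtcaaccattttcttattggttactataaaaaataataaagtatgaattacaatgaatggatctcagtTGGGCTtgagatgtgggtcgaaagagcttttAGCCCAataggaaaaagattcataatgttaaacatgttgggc
RPS6A: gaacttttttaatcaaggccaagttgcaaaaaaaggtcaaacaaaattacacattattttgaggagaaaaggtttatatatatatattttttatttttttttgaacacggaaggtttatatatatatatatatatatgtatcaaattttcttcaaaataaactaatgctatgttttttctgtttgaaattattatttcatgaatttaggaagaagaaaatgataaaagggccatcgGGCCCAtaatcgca
RPS6B: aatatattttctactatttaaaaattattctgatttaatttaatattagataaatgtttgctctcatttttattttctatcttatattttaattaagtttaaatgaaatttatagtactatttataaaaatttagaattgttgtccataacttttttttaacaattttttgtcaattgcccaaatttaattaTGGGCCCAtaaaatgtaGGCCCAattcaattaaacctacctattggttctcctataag

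Site II elements stood within the 250 bases before the RefSeq start of 28 of the 43 genes (65.1%), against 19.2% of 27437 promoters of the same length. Matches were counted on both strands and overlapping matches were included. Both strands of 1 palindromic stretch carry the element in RPS6B, which gives it 3 matches against 1 in RPS6A. The telo box AAACCCTA was found in 4 of the genes (9.30%, against 4.49% of promoters), 2 of which also had a site II element. The G-box CACGTG, a form of site that PIF proteins are known to bind, was found in 2 (4.65%, against 6.49%), namely RPL23AA (AT2G39460) and the S28e gene AT3G10090. The TATA box TATAAA was found in 20 (46.5%, against 47.4%). After 6 h of light in cotyledons, the median log2 fold was 1.11 over the 28 genes with a site II element and 1.39 over the 15 without one, and 25 and 14 of them rose. In pifq hypocotyls these medians were 0.72 and 0.91, and 15 and 9 rose. After 6 h of light in hypocotyls both medians were 0.29, and 4 and 4 rose. The median was thus lower with the element in the first pair of comparisons and alike in the third, a description without a test.

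Light was followed in cotyledons by higher levels of nearly the whole set. The summed FPKM of the 43 genes was 12400 in the dark, 15093 after 1 h and 27983 after 6 h, which was 1.11%, 1.28% and 1.90% of the summed FPKM of all genes in those groups. In hypocotyls the sums were 4742, 5020 and 6238 FPKM, or 0.548%, 0.550% and 0.716% of all genes. The median gene of the set had 251, 326 and 607 FPKM in cotyledons and 103, 113 and 123 FPKM in hypocotyls, in the order dark, 1 h and 6 h. The organs stand in separate tables whose common scale is not known, so their levels are not compared.

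**Figure D1:**
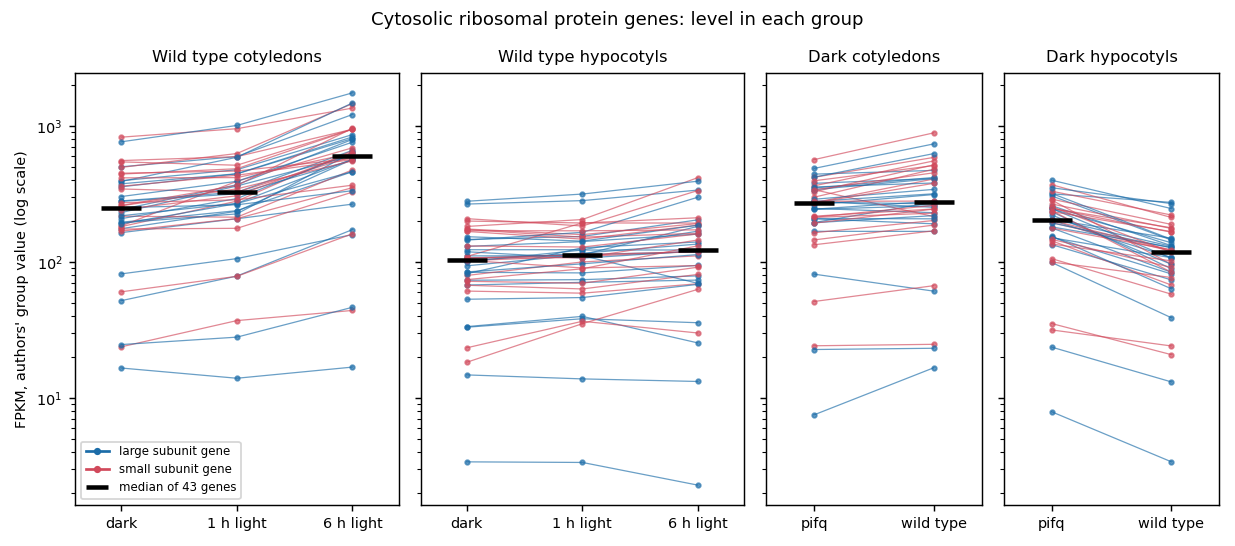
Level of each of the 43 genes (FPKM, log scale) in wild type cotyledons and hypocotyls in the dark and after 1 h and 6 h of light, and in dark pifq and wild type organs; each line is a gene, each point the authors' group value of 3 samples, and black bars are medians. In cotyledons the median stands at 251, 326 and 607 FPKM in the dark, at 1 h and at 6 h, and in dark hypocotyls all 43 lines are higher in pifq than in wild type.

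After 1 h of light in cotyledons, 6 of the 43 genes rose and none fell, against 10.6% of all tested genes that rose and 8.45% that fell. The share of the set, 14.0%, was thus near the background. The authors' unadjusted p was under 0.05 for 10 of the 43, against 4907 of the 18998 tested genes. The median log2 fold was 0.30 (median SE 0.38), against 0.03 over all tested genes, and 39 of the 43 values were higher than in the dark.

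The early rise was largest for the small subunit gene AT3G53890, which encodes protein S21e. It had 393 FPKM after 1 h of light, against 184 FPKM in the dark, a log2 fold of 1.09 (SE 0.39). PGY1 (AT2G27530), for protein L10a and known from its part in leaf patterning, had 363 FPKM after 1 h, against 231 FPKM in the dark, a log2 fold of 0.65 (SE 0.39). RPS6A had 281 FPKM after 1 h, against 182 FPKM in the dark, a log2 fold of 0.62 (SE 0.37). Both genes for protein L23a, which lies at the exit of the tunnel for the new peptide, rose as well, RPL23AA by 0.61 (SE 0.38) and RPL23AB (AT3G55280) by 0.60 (SE 0.36) on the log2 scale. AT1G70600 rose by 0.59 (SE 0.38). Of these 6 rises, that of AT3G53890 alone had a q-value under 0.01, and none of the 6 passed when p-values were derived directly from the authors' statistic with folds centred on all genes.

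After 6 h of light in cotyledons, 39 of the 43 genes rose and none fell, against 24% of all tested genes that rose and 19.8% that fell. All 43 values were higher than in the dark. The median log2 fold was 1.15 (median SE 0.40), against 0.03 over all tested genes, and the range ran from 0.02 to 1.92. Of the large subunit genes 21 of 23 rose, with a median of 1.24, and of the small subunit genes 18 of 20 rose, with a median of 0.98. Under the p-values derived from the statistic with centred folds, 26 of the 39 rises passed.

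The largest fold was that of AT1G70600, with 1481 FPKM after 6 h, against 392 FPKM in the dark, a log2 fold of 1.92 (SE 0.43). AT3G53890 followed with 693 FPKM after 6 h, against 184 FPKM in the dark (1.91, SE 0.40). The third was AT3G53870, 1 of 3 genes for protein S3 at the messenger RNA entry channel, with 964 FPKM after 6 h, against 261 FPKM in the dark (1.89, SE 0.40). These genes are of different families and belong to both subunits.

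RPS6A had 660.4 FPKM after 6 h, against 182 FPKM in the dark, a log2 fold of 1.86 (SE 0.39). RPL23AB had 173 FPKM after 6 h, against 52.0 FPKM in the dark (1.74, SE 0.37). RPL24A (AT2G36620), a gene for protein L24, which takes part in a bridge between the subunits, had 639.8 FPKM after 6 h, against 194 FPKM in the dark (1.72, SE 0.37). At 1 h, RPL24A had stood at 226 FPKM and had not passed the test, while RPS6A and RPL23AB had.

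Among the genes that passed, 3 had the smallest folds. AT5G28060, for protein S24e, had 632 FPKM after 6 h, against 416 FPKM in the dark, a log2 fold of 0.60 (SE 0.39). RPS10B (AT5G41520), for protein S10e, had 568 FPKM after 6 h, against 361 FPKM in the dark (0.65, SE 0.39). AT1G08360, the other gene of the set for protein L10a, had 267 FPKM after 6 h, against 165 FPKM in the dark (0.70, SE 0.37).

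The other 4 genes did not pass the test at 6 h. RPS18C (AT4G09800), for the small subunit protein S18 and sharing its locus in the tables with another gene, had 578 FPKM, against 450.3 FPKM in the dark (0.36, SE 0.40). AT5G35530, for protein S3, had 368 FPKM, against 273 FPKM in the dark (0.43, SE 0.38). PGY2 (AT1G33140), for protein L9, had 335 FPKM, against 251 FPKM in the dark (0.41, SE 0.38), and its reads cannot be separated well from those of AT1G33120, as set out with the gene copies. AT2G40010 had 16.8 FPKM, against 16.6 FPKM in the dark (0.02, SE 0.44), the lowest level of the set, and it too shares its locus with another gene.

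The genes between these extremes are given by their place in the ribosome, first those of the large subunit. RPL3A (AT1G43170), for a protein close to the peptidyl transferase centre, had 866 FPKM after 6 h of light in cotyledons, against 397 FPKM in the dark (1.13, SE 0.44). In hypocotyls it had 307 FPKM in pifq, against 145 FPKM in wild type (1.08, SE 0.30). RPL10A (AT1G14320), for a protein that joins the large subunit late in its assembly, had 1218 FPKM after 6 h in cotyledons, against 502 FPKM in the dark (1.28, SE 0.41). In pifq hypocotyls it had 400.0 FPKM, against 247 FPKM in wild type (0.69, SE 0.29), and did not pass the test.

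Protein L5 carries the 5S ribosomal RNA into the large subunit, and both of its genes in the set rose. RPL5A (AT3G25520) had 810.1 FPKM after 6 h in cotyledons, against 358 FPKM in the dark (1.18, SE 0.42). RPL5B (AT5G39740) had 462 FPKM, against 196 FPKM in the dark (1.24, SE 0.39). In pifq hypocotyls their log2 folds were 0.98 (SE 0.28) and 1.09 (SE 0.27), and both passed the test. The L4 genes rose together with light, AT3G09630 with 663 FPKM after 6 h, against 282 FPKM in the dark (1.24, SE 0.42), and AT5G02870 by 1.69 (SE 0.40). In pifq hypocotyls AT5G02870 rose (0.91, SE 0.27), and AT3G09630 did not pass the test (0.49, SE 0.28).

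AT2G19730, for protein L28e, had 571 FPKM after 6 h in cotyledons, against 219 FPKM in the dark (1.38, SE 0.39), and 222 FPKM in pifq hypocotyls, against 96.2 FPKM in wild type (1.21, SE 0.32). AT3G59540, the second L38e gene, had 762 FPKM after 6 h in cotyledons, against 303 FPKM in the dark (1.33, SE 0.38). AT5G27850, for protein L18e, had 562 FPKM, against 279 FPKM in the dark (1.01, SE 0.39). AT1G01100, for an acidic protein of the large subunit, had the highest level of the set after 6 h, 1758 FPKM, against 767 FPKM in the dark (1.20, SE 0.40). It did not pass the test in pifq hypocotyls, with 352 FPKM, against 269 FPKM in wild type (0.39, SE 0.27).

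Of the small subunit, RPSAA (AT1G72370) had 948 FPKM after 6 h in cotyledons, against 444 FPKM in the dark (1.09, SE 0.42). RPS13A (AT4G00100), which is needed in early leaf development, had 949 FPKM, against 558 FPKM in the dark (0.77, SE 0.39). RPS15A (AT1G07770) had 1358 FPKM, against 829 FPKM in the dark, the highest dark level of the set (0.71, SE 0.42). In pifq hypocotyls RPS15A rose (0.80, SE 0.29), while RPSAA (0.58, SE 0.29) and RPS13A (0.60, SE 0.26) did not pass the test. AT3G10090, for protein S28e, had 44.0 FPKM after 6 h in cotyledons, against 23.8 FPKM in the dark (0.89, SE 0.56), the widest SE of the set there.

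**Figure D2:**
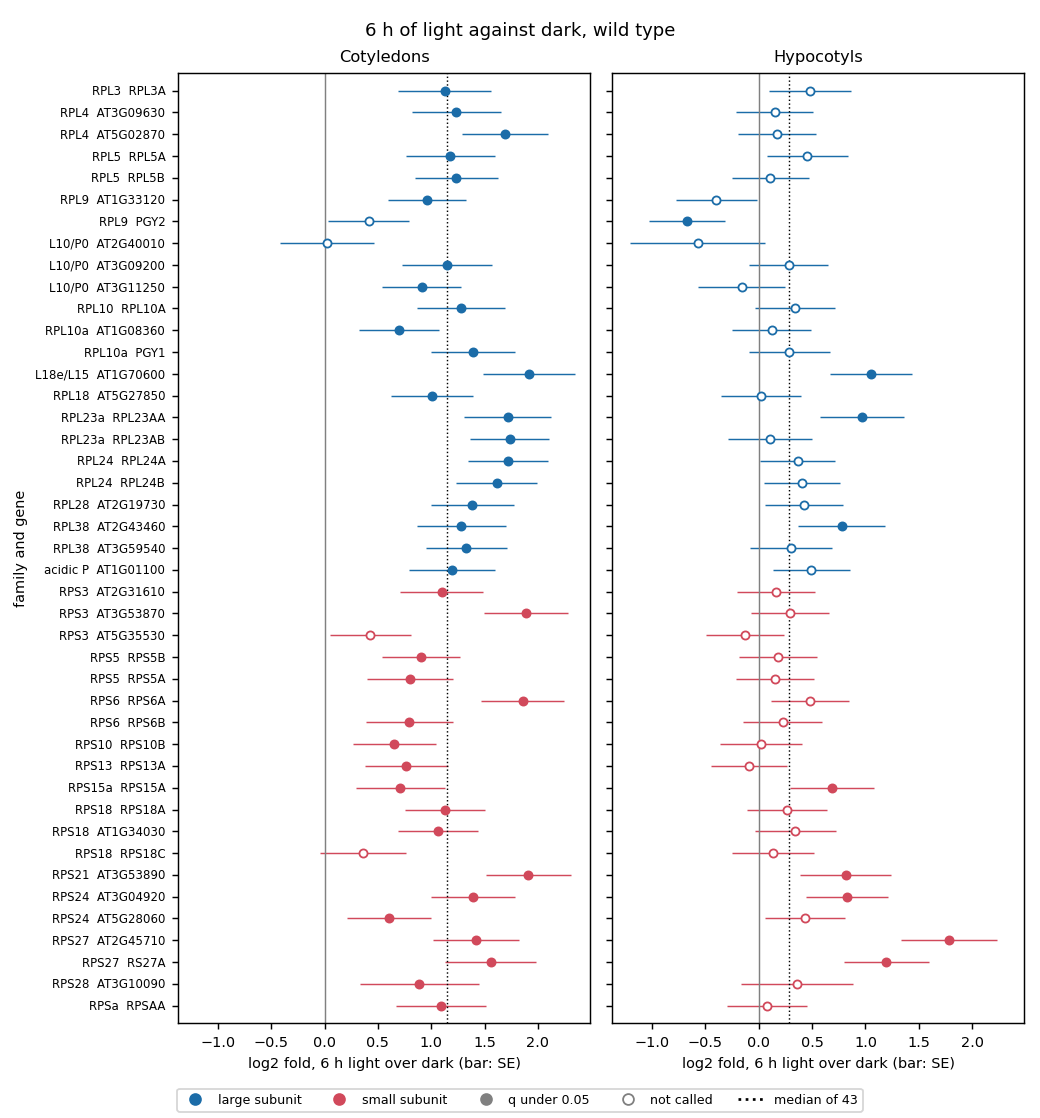
Log2 fold of each of the 43 genes after 6 h of light over dark in wild type cotyledons (left) and hypocotyls (right); points are folds of the authors' group values, bars are 1 SE, filled points have a deposited q-value under 0.05, and the dotted line is the median of the set. In cotyledons 39 points are filled and the median is 1.15, and in hypocotyls 9 are filled, 8 of them above 0, and the median is 0.29.

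In hypocotyls, 1 h of light was followed by a rise of 3 of the 43 genes and a fall of none, against 10% of all tested genes that rose and 5.14% that fell. The median log2 fold of the set was 0.07, against 0.04 over all tested genes, and 26 of the 43 values were higher than in the dark. The unadjusted p was under 0.05 for 4 of the 43, against 4125 of the 19809 tested genes.

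The 3 rises were those of genes from different families. AT2G45710, the minor copy of the S27 gene RS27A (AT3G61110), had 35.2 FPKM after 1 h, against 18.3 FPKM in the dark, a log2 fold of 0.94 (SE 0.46). AT3G53890 had 194 FPKM after 1 h, against 109.8 FPKM in the dark (0.82, SE 0.42), and it was the 1 gene of the set that rose in both organs at 1 h. AT2G43460, for protein L38e, had 127 FPKM after 1 h, against 82.0 FPKM in the dark (0.64, SE 0.40). None of the 3 passed with p-values derived from the statistic and centred folds, a setting in which rises made up 77.3% of all calls in that table, against 66.1% as deposited.

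After 6 h in hypocotyls, 8 of the 43 genes rose and 1 fell, against 17.3% of all tested genes that rose and 22% that fell. The share that rose, 18.6%, was near the background. The median log2 fold was 0.29, against -0.13 over all tested genes, and 37 of the 43 values were higher than in the dark. With folds centred on that median of all genes and p-values derived from the statistic, rises made up 57.8% of all calls, against 44.1% as deposited, and 4 of the 8 rises of the set passed.

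Both S27 genes of the set led. AT2G45710 had 63.0 FPKM after 6 h, against 18.3 FPKM in the dark, a log2 fold of 1.78 (SE 0.45), the 1 gene of the set with a larger fold in hypocotyls than in cotyledons. RS27A had 418 FPKM after 6 h, against 183 FPKM in the dark (1.19, SE 0.40). The protein is a zinc-binding component of the small subunit.

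AT1G70600 had 299.9 FPKM after 6 h in hypocotyls, against 145 FPKM in the dark (1.05, SE 0.39). RPL23AA had 183 FPKM after 6 h, against 93.8 FPKM in the dark (0.96, SE 0.39). AT3G04920, for protein S24e, had 132 FPKM after 6 h, against 74.2 FPKM in the dark (0.83, SE 0.38). The remaining rises were those of AT3G53890 (0.82, SE 0.43), AT2G43460 (0.78, SE 0.41) and RPS15A (0.69, SE 0.39), the last for a small subunit protein. All 8 of these genes had also risen in cotyledons, as had 90.7% of the whole set, and they make up 20.5% of the 39 cotyledon rises, against 18.6% of the whole set.

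The 1 fall was that of PGY2, with 69.7 FPKM after 6 h in hypocotyls, against 111 FPKM in the dark, a log2 fold of -0.67 (SE 0.36). It did not pass with centred folds and p-values derived from the statistic, and its reads cannot be separated well from those of its near copy. That copy, AT1G33120, had 25.4 FPKM after 6 h, against 33.5 FPKM in the dark (-0.40, SE 0.38), and did not pass the test. The 2 minor L10 family genes AT2G40010 (-0.57, SE 0.63) and AT3G11250 (-0.16, SE 0.41) did not pass either.

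Cotyledons and hypocotyls were then set against each other. The cotyledon log2 fold minus the hypocotyl log2 fold was divided by the joint SE, with a two-sided normal p adjusted by Benjamini-Hochberg over all genes tested in both organs. At 6 h, 3 of the 43 genes had a larger fold in cotyledons and none in hypocotyls, against 6.62% and 5.99% of all genes compared. The 3 were RPL23AB, AT3G53870 and AT5G02870, the last for protein L4 at the peptide tunnel. Of the 43 folds, 42 were higher in cotyledons. With SEs recovered from the authors' statistic, the share of the set that passed, 3 of 43, was near the background. This count depended on the setting. With folds centred on all genes RPL23AB alone of the set passed, against 5.70% of all genes with a larger fold in cotyledons, and with the SE taken from the deposited p-value 17 of the 43 passed, the 3 genes included, against 15.1%. The median difference was 0.87 (median SE 0.54), against -0.004 over all genes compared. The unadjusted p was under 0.05 for 11 of the 43. At 1 h, 0 of the 43 passed, against 0.138% and 0.321% of all genes, and 0 had an unadjusted p under 0.05. The median difference at 1 h was 0.25, against -0.03 over all genes compared.

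RPL23AB had 173 FPKM after 6 h, against 52.0 FPKM in the dark in cotyledons, and 35.7 FPKM after 6 h, against 33.1 FPKM in the dark in hypocotyls. AT3G53870 had 964 and 261 FPKM in light and dark cotyledons, and 161 and 131 FPKM in light and dark hypocotyls. AT5G02870 had 569 and 176 FPKM in light and dark cotyledons, and 94.5 and 84.0 FPKM in light and dark hypocotyls. For each of the 3, the hypocotyl value had moved by less than its SE.

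In dark cotyledons, 1 of the 43 genes fell in pifq and none rose, against 5.66% of all tested genes that fell and 4.79% that rose. The unadjusted p was under 0.05 for 2 of the 43, against 3884 of the 19516 tested genes. The median log2 fold was -0.25 (median SE 0.35), against -0.03 over all tested genes, and 35 of the 43 values were lower in pifq. Their sum was 11229 FPKM in pifq cotyledons, against 13811 FPKM in wild type cotyledons. As a share of the summed FPKM of all genes it was 0.961% in pifq, against 0.889% in wild type, so the direction of the sum depends on the scale.

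The 1 fall was that of AT2G40010, with 7.50 FPKM in pifq cotyledons, against 16.7 FPKM in wild type cotyledons, a log2 fold of -1.15 (SE 0.38). Its q-value was 0.025, its level was the lowest of the set, and its locus is shared with another gene. At the other end stood RPS6A, with 341 FPKM in pifq, against 216 FPKM in wild type (0.66, SE 0.36), which did not pass the test. RPS6B had 274 FPKM in pifq, against 408 FPKM in wild type (-0.58, SE 0.39), and did not pass it either. RPS18C (-0.68, SE 0.36), RS27A (-0.66, SE 0.33), RPS15A (-0.66, SE 0.42) and RPS5A (AT3G11940; -0.61, SE 0.37) had the next lowest folds without passing the test.

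In dark hypocotyls, 24 of the 43 genes rose in pifq and none fell, against 13% of all tested genes that rose and 14.5% that fell. All 43 values were higher in pifq. The median log2 fold was 0.76 (median SE 0.27), against -0.03 over all tested genes, and the range ran from 0.21 to 1.57. The sum was 8847 FPKM in pifq hypocotyls, against 5168 FPKM in wild type hypocotyls, or 0.887% against 0.446% of all genes. Of the large subunit genes 16 of 23 rose, with a median of 0.91, and of the small subunit genes 8 of 20 rose, with a median of 0.65. All 24 rises passed with centred folds and p-values derived from the statistic.

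RPS6A had the largest fold, with 286 FPKM in pifq hypocotyls, against 96.1 FPKM in wild type hypocotyls (1.57, SE 0.27). AT3G04920, for protein S24e, had 239 FPKM in pifq, against 84.0 FPKM in wild type (1.51, SE 0.26). AT2G43460, for protein L38e, had 235 FPKM in pifq, against 89.1 FPKM in wild type (1.40, SE 0.27). All 3 have a second copy in the set. They are the 3 largest folds and of different families, so the other copies necessarily had smaller ones.

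RPL23AB had 99.3 FPKM in pifq hypocotyls, against 38.9 FPKM in wild type (1.35, SE 0.27). RPL24A had 155 FPKM in pifq, against 63.5 FPKM in wild type (1.29, SE 0.27). AT2G40010 had 7.90 FPKM in pifq, against 3.38 FPKM in wild type (1.22, SE 0.41). It was thus lower in pifq cotyledons and higher in pifq hypocotyls.

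The smallest called rises were those of AT1G33120 (0.67, SE 0.26), a near copy of PGY2, of AT5G35530 (0.69, SE 0.26) and of AT3G53870 (0.73, SE 0.27), both for protein S3. Among the 19 genes that did not pass, the lowest fold was that of PGY2, with 318 FPKM in pifq hypocotyls, against 275 FPKM in wild type (0.21, SE 0.27). RPS6B had 196 FPKM in pifq, against 120.1 FPKM in wild type (0.70, SE 0.33), and missed the threshold with a q-value of 0.101.

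**Figure D3:**
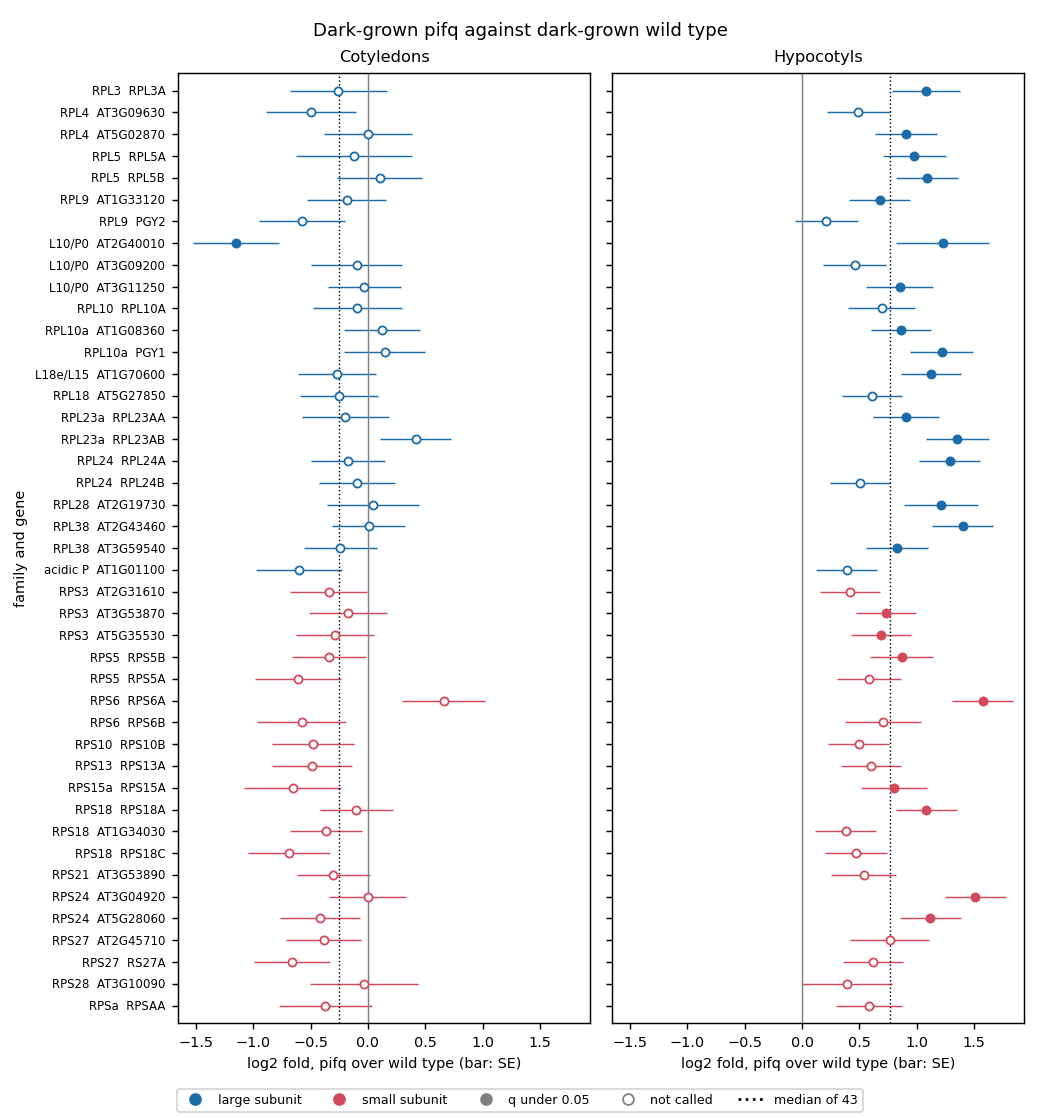
Log2 fold of each of the 43 genes in dark pifq over dark wild type cotyledons (left) and hypocotyls (right); points are folds of the authors' group values, bars are 1 SE, filled points have a deposited q-value under 0.05, and the dotted line is the median of the set. In cotyledons the median is -0.25 and 1 point is filled, and in hypocotyls the median is 0.76, 24 points are filled and all 43 lie above 0.

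The mutant contrast differed between organs for 10 of the 43 genes, all with a larger fold in hypocotyls, against 6.97% of all genes compared that were larger in hypocotyls and 4.46% that were larger in cotyledons. The cotyledon fold was lower than the hypocotyl fold for all 43. The median difference, cotyledon minus hypocotyl, was -0.99 (median SE 0.44), against -0.03 over all genes, and the unadjusted p was under 0.05 for 32 of the 43. AT2G40010 had the largest difference, -2.38 (SE 0.55), with a Benjamini-Hochberg adjusted normal p of 0.00047. This gene had the lowest level of the set in both organs and shares its locus with another gene.

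AT3G04920 had 280.2 and 281 FPKM in pifq and wild type cotyledons, and 239 and 84.0 FPKM in pifq and wild type hypocotyls. The difference of its folds was -1.51 (SE 0.43). AT5G28060, its copy, differed by -1.53 (SE 0.44), and RPL24A by -1.46 (SE 0.42). AT2G43460 differed by -1.39 (SE 0.42) and AT1G70600 by -1.39 (SE 0.43). Both genes of the S24e family are therefore among the 10, while of the L24 and L38e families 1 copy each is.

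Of the 39 genes that rose with 6 h of light in cotyledons, 22 also rose in dark pifq hypocotyls. They are 56.4% of the 39, against 55.8% of the whole set that rose in pifq hypocotyls, and 91.7% of the 24 rises in pifq, against 90.7% of the whole set that rose in cotyledons. The overlap was thus close to the shares of the whole set. The p-values of the light and mutant tables relate differently to their statistics, so the numbers of rises are not compared. These comparisons share no organ. Rises with light in hypocotyls and rises in pifq hypocotyls are both measured against dark wild type hypocotyls, so they are given side by side only. AT2G45710 had log2 folds of 1.78 (SE 0.45) with 6 h of light and 0.76 (SE 0.35) in pifq. RS27A had 1.19 (SE 0.40) and 0.62 (SE 0.26), and neither S27 gene passed the test in pifq. RPS6A had 0.48 (SE 0.36) with light, which did not pass, and 1.57 (SE 0.27) in pifq.

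Within some families the copies had different folds of the group values, so their shares of the family's FPKM were not the same in light and dark. Shares are of the summed FPKM of the family's genes in the set, so any copy outside the set is not counted. They rest on 1 value per group and carry no error, and gaps between copies picked by their values were not tested. Protein S6 is encoded by RPS6A and RPS6B, whose coding sequences were 84.7% identical. RPS6A made up 34.6% of the family's FPKM in dark cotyledons, 46.2% after 1 h and 52.5% after 6 h. In hypocotyls its share was 43.7%, 47.7% and 48.2% at these points. It was 55.5% in dark pifq cotyledons, against 34.6% in wild type, and 59.4% in dark pifq hypocotyls, against 44.5% in wild type. RPS6A was thus the minor copy in dark wild type organs and the major copy in dark pifq organs. The log2 folds of the copies at 6 h in cotyledons were 1.86 and 0.79, a difference of 1.06 (SE 0.56 if both values are independent).

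In the S3 family, AT3G53870 held 32.9% of the family's FPKM in dark cotyledons, 36.7% after 1 h and 51.1% after 6 h. AT5G35530 held 34.4%, 28.7% and 19.5% at these points, and the third copy AT2G31610 held 32.7%, 34.6% and 29.4%. The 3 copies were thus near parity in the dark, and AT3G53870 exceeded the others together after 6 h. The folds of AT3G53870 and AT5G35530 at 6 h differed by 1.46 (SE 0.55 if independent), the widest gap of the 14 families in that comparison. AT2G31610 rose as well, with 555 FPKM after 6 h, against 259 FPKM in the dark (1.10, SE 0.39). In hypocotyls the share of AT3G53870 was 38.5%, 38.8% and 42.97% at these points.

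Of the S24e FPKM, AT3G04920 held 36.9% in dark cotyledons, 42.4% after 1 h and 50.2% after 6 h. It held 45.2% in pifq cotyledons, against 38.2% in wild type. Its copy AT5G28060 rose in pifq hypocotyls, with 255 FPKM in pifq, against 118 FPKM in wild type (1.12, SE 0.27). In the S18 family, RPS18C held 53.8%, 52.5% and 41.1% in cotyledons in the dark, at 1 h and at 6 h. RPS18A (AT1G22780), known from mutants with pointed first leaves, held 25.98%, 24.02% and 33.9%. RPS18A had 476 FPKM after 6 h, against 217 FPKM in the dark (1.13, SE 0.37), and AT1G34030 had 352 FPKM, against 169 FPKM in the dark (1.06, SE 0.37). In pifq hypocotyls RPS18A was the 1 gene of its family that rose (1.08, SE 0.27), beside 0.47 (SE 0.27) for RPS18C and 0.38 (SE 0.26) for AT1G34030.

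Shares moved less in other families in cotyledons. RPL23AA held 82.4%, 82.5% and 82.2% of the L23a FPKM there in the dark, at 1 h and at 6 h. The copies' log2 folds at 6 h were 1.71 (SE 0.41) for RPL23AA and 1.74 (SE 0.37) for RPL23AB. In hypocotyls the share of RPL23AA was 73.9%, 74.7% and 83.7%. RPS5A, needed for cell division in the embryo, held 75.7%, 74.4% and 74.4% of the S5 FPKM in cotyledons. It had 950.5 FPKM after 6 h, against 546 FPKM in the dark (0.80, SE 0.41), and RPS5B (AT2G37270) had 327 FPKM, against 175 FPKM in the dark (0.90, SE 0.37). In pifq hypocotyls RPS5B rose (0.87, SE 0.27) and RPS5A did not pass the test (0.58, SE 0.28).

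RPL24B (AT3G53020), also known as STV1 from its short valve mutant, held 51.8%, 56.5% and 49.9% of the L24 FPKM in cotyledons in the dark, at 1 h and at 6 h. It had 638 FPKM after 6 h, against 209 FPKM in the dark (1.61, SE 0.38). In hypocotyls it held 53.9% in pifq, against 66.9% in wild type, and its fold in pifq was 0.50 (SE 0.26), which did not pass the test.

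Of the L10 family, the major copy AT3G09200 held 90.1%, 91.4% and 92.9% of the FPKM in cotyledons at these points. It had 833 FPKM after 6 h, against 376 FPKM in the dark (1.15, SE 0.42), and 205 FPKM in pifq hypocotyls, against 149.6 FPKM in wild type (0.46, SE 0.28), without passing the test there. AT3G11250 had 46.4 FPKM after 6 h in cotyledons, against 24.7 FPKM in the dark (0.91, SE 0.37), and 23.6 FPKM in pifq hypocotyls, against 13.1 FPKM in wild type (0.85, SE 0.29). AT2G40010 made up 3.97%, 2.86% and 1.88% of the family's FPKM in wild type cotyledons in the dark, at 1 h and at 6 h.

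Further values of the S6, S5, S18, L23a, L24 and L10 genes follow, and of those not given above, that of RPL23AA in pifq hypocotyls alone passed the test. RPS6B had 327 FPKM after 1 h in cotyledons, against 345 FPKM in the dark (-0.08, SE 0.39). In hypocotyls RPS6A had 79.6, 100.1 and 111 FPKM in the dark, at 1 h and at 6 h, and RPS6B had 102, 109.9 and 119.6 FPKM. RPS5A had 168, 147 and 187 FPKM and RPS5B 61.1, 59.0 and 69.2 FPKM at these points. The log2 folds of the S5 genes ran from -0.19 to 0.18, less than 1 SE. In pifq cotyledons RPS5B had 134 FPKM, against 169.6 FPKM in wild type (-0.34, SE 0.32).

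The S18 genes in hypocotyls had 67.4, 63.3 and 81.1 FPKM for RPS18A, 72.1, 69.8 and 91.6 FPKM for AT1G34030, and 175, 159 and 192 FPKM for RPS18C, in the dark, at 1 h and at 6 h. After 1 h in cotyledons their log2 folds were -0.02 (SE 0.37), 0.30 (SE 0.37) and 0.05 (SE 0.40). In pifq cotyledons RPS18A had 213 FPKM, against 229 FPKM in wild type (-0.10, SE 0.32), and AT1G34030 had 145 FPKM, against 187 FPKM in wild type (-0.36, SE 0.31). Each of these folds was smaller than 1 SE or close to it.

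RPL23AB in hypocotyls had 33.1, 38.2 and 35.7 FPKM in the dark, at 1 h and at 6 h. In pifq cotyledons it had 81.4 FPKM, against 61.0 FPKM in wild type (0.42, SE 0.31), while RPL23AA had 245 FPKM, against 281 FPKM in wild type (-0.20, SE 0.38). In pifq hypocotyls RPL23AA rose, with 203 FPKM, against 108 FPKM in wild type (0.91, SE 0.29). The L24 genes in hypocotyls had 102, 116 and 136 FPKM for RPL24B and 53.2, 54.8 and 68.5 FPKM for RPL24A over the same points. In pifq cotyledons RPL24B (-0.09, SE 0.33) and RPL24A (-0.17, SE 0.32) stood within 1 SE of wild type.

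The L10 family in hypocotyls had 154, 142 and 187 FPKM for AT3G09200, 14.8, 13.8 and 13.2 FPKM for AT3G11250, and 3.38, 3.35 and 2.28 FPKM for AT2G40010, in the dark, at 1 h and at 6 h. After 1 h in cotyledons AT2G40010 had 13.9 FPKM, against 16.6 FPKM in the dark (-0.25, SE 0.47), the lowest fold of the set. In pifq cotyledons AT3G09200 (-0.10, SE 0.40) and AT3G11250 (-0.03, SE 0.32) stood within 1 SE of wild type, where AT2G40010 fell.

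**Figure D4:**
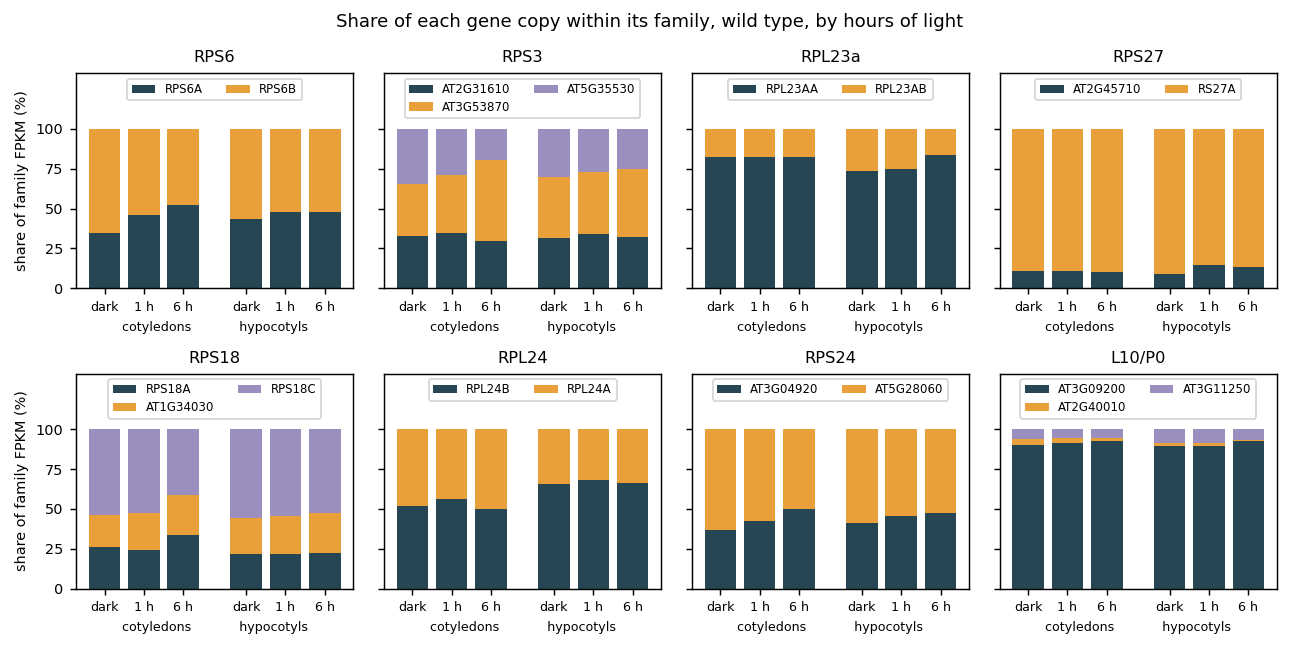
Share of each gene copy in the summed FPKM of its family's genes in the set (%). The 8 families are shown in wild type cotyledons and hypocotyls, in the dark and after 1 h and 6 h of light. Bars are stacked to 100 and rest on 1 authors' value per group, so they carry no error. RPS6A makes up 34.6%, 46.2% and 52.5% of the S6 family in cotyledons in the dark, at 1 h and at 6 h, and RPL23AA 82.4%, 82.5% and 82.2% of its family.

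The L9 pair AT1G33120 and PGY2 was the 1 pair of near copies in the set, with 99.1% identical coding bases and 76.3% of 50-base stretches in common. Their wild type values also differed between tables. AT1G33120 had 318 FPKM in the wild type column of the cotyledon mutant table, against 81.8 FPKM in the dark column of the light tables, a log2 ratio of 1.96. PGY2 had 628 FPKM, against 251 FPKM, a log2 ratio of 1.32. In hypocotyls these ratios were 1.96 and 1.31. The largest such ratio of any other gene of the set was 0.32 in either organ. Levels of this pair are therefore uncertain, and the cause of the gap was not tested. The remaining pairs of a family had between 74.6% and 92.7% identical coding bases.

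A further 4 gene lists of the translation machinery were counted by the same rule, beside the background shares already given. The lists were chosen with earlier results of these data known, and no test across a list was made. They were ribosome biogenesis (34 genes), translation initiation and elongation factors (27), TOR signalling (9) and plastid ribosomal proteins (37), the last encoded in the nucleus for the chloroplast ribosome.

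Of the ribosome biogenesis genes tested, 30 of 33 (90.9%) rose after 6 h of light in cotyledons, against 24% of all tested genes. In hypocotyls 19 of 34 (55.9%) rose at 6 h, against 17.3%. In cotyledons 5 of 33 (15.2%) rose at 1 h, near the 10.6% of all tested genes (median log2 fold 0.29), and the median at 6 h was 1.48. FIB2 (AT4G25630), for the nucleolar protein fibrillarin, had 84.0 FPKM after 6 h, against 11.5 FPKM in the dark (2.87, SE 0.39). NOP56 (AT1G56110), for a core protein of the same small nucleolar particles, had 93.5 FPKM, against 18.2 FPKM in the dark (2.36, SE 0.37). The 1 fall of the list at 6 h was that of AT4G31420 (-1.22, SE 0.46).

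In hypocotyls 0 of 34 biogenesis genes rose at 1 h by the authors' q-value, against 10% of all tested genes. Of the 34, 0 had an unadjusted p under 0.05. The median at 6 h was 0.66, with rises of RID2 (1.40, SE 0.47) and PWP2 (1.34, SE 0.41) among the 19. In pifq hypocotyls 9 of 34 (26.5%) rose (median 0.51), against 13% of all tested genes. In pifq cotyledons 0 of 33 passed the test (median -0.08), against 4.79% of all tested genes that rose and 5.66% that fell. Of the 33, 0 had an unadjusted p under 0.05 there. After 6 h of light in hypocotyls the biogenesis median of 0.66 thus stood beside 0.29 for the ribosomal protein genes, and in pifq hypocotyls 0.51 stood beside 0.76.

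Plastid ribosomal protein genes are given for each organ by their counts, and the difference between organs was not tested for this list. In hypocotyls 11 of 37 rose at 1 h (median 0.49), 37 of 37 at 6 h (median 2.41) and 37 of 37 in pifq (median 2.27). Of all tested genes 10%, 17.3% and 13% rose in these comparisons. PSRP3/1 (AT1G68590), for a plastid-specific protein of the small subunit, had 119 FPKM after 6 h in hypocotyls, against 8.54 FPKM in the dark (3.80, SE 0.46). In pifq hypocotyls it had 97.0 FPKM, against 9.25 FPKM in wild type (3.39, SE 0.35). In cotyledons 0 of 37 rose at 1 h, against 10.6% of all tested genes, with 0 at an unadjusted p under 0.05. At 6 h 24 of 37 (64.9%) rose (median 0.63), against 24% of all tested genes. PSRP3/1 had 1254 FPKM there, against 412 FPKM in the dark (1.61, SE 0.40). In pifq cotyledons 0 of 37 passed the test, against 4.79% of all tested genes that rose and 5.66% that fell. Of the 37, 1 had an unadjusted p under 0.05 there.

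Of the 27 translation factor genes, 4 (14.8%) rose at 1 h in cotyledons, near the 10.6% of all tested genes (median 0.11). At 6 h 17 (63.0%) rose and 2 (7.41%) fell there, against 24% and 19.8% of all tested genes (median 0.80). AT5G12110, annotated with elongation factor 1B, had 61.7 FPKM after 6 h, against 18.2 FPKM in the dark (1.76, SE 0.37). In hypocotyls 2 (7.41%) rose and 2 (7.41%) fell at 6 h, against 17.3% and 22% of all tested genes. In pifq hypocotyls 2 rose and 2 fell as well, against 13% and 14.5% of all tested genes. The falls in pifq hypocotyls were ELF5A-1, with 3.27 FPKM in pifq, against 29.96 FPKM in wild type (-3.20, SE 0.42), and ELF5A-3 (-1.73, SE 0.27), both for the translation factor eIF5A. ELF5A-3 also fell in pifq cotyledons (-0.90, SE 0.32).

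Of the 9 TOR signalling genes, PK1 (AT3G08730), for an S6 kinase, had 217 FPKM in cotyledons after 1 h, against 52.3 FPKM in the dark, a log2 fold of 2.06 (SE 0.38), and 101 FPKM after 6 h (0.95, SE 0.37). In hypocotyls it had 79.3 FPKM after 1 h, against 37.7 FPKM in the dark (1.07, SE 0.37). At 6 h 1 of the 9 (11.1%) rose and 3 (33.3%) fell in cotyledons, against 24% and 19.8% of all tested genes. In hypocotyls 2 of the 9 (22.2%) fell, near the 22% of all tested genes. The second S6 kinase gene S6K2 fell at 6 h in cotyledons (-0.99, SE 0.42) and in hypocotyls (-0.92, SE 0.38). TOR itself fell in hypocotyls at 6 h (-0.62, SE 0.37) and LST8-1, for a partner of TOR, in cotyledons (-0.67, SE 0.36). In pifq 0 of the 9 passed the test in either organ, with 0 at an unadjusted p under 0.05.

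**Figure D5:**
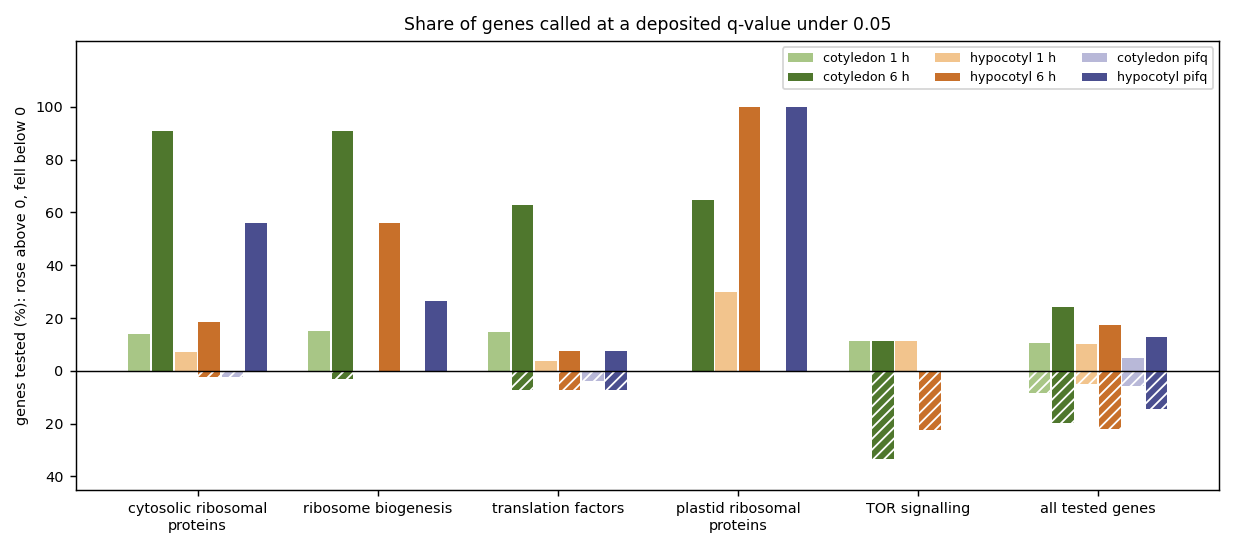
Share of tested genes (%) that rose (above 0) or fell (below 0, hatched) at a deposited q-value under 0.05, for the 43 cytosolic ribosomal protein genes, 4 further lists and all tested genes in the 6 comparisons. Cytosolic ribosomal protein genes reach 90.7% in cotyledons at 6 h and 18.6% in hypocotyls at 6 h, and plastid ribosomal protein genes reach 100% in hypocotyls at 6 h and in pifq hypocotyls.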

How the data were processed

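Per the submitters' processing notes, TopHat, Cufflinks and the TAIR10 build were used, with no versions stated there. The authors deposited 6 tables with 1 FPKM value per group (a unit read from the layout, as the header does not name it), a test statistic (a score), a p-value and a q-value per gene. Single samples were not analysed here. The labels do not link samples to the wild type columns of the mutant tables.

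Log2 folds were computed from the group values, and the SE as absolute fold over absolute statistic. In the median gene the normal score of the deposited p-value was 1.69 to 1.71 times the statistic in the light tables and equal to it in the mutant tables. Numbers of calls are therefore not compared between them, and overlaps of calls are set only against the shares of the whole set. The mutant tables' statistic has the opposite sign to the fold, so the group values set the direction. The organ test ran in Python 3.11.15 with pandas 2.3.3, numpy 2.4.6 and SciPy 1.17.1. It was also run on simulated folds drawn with the recovered SEs, which cannot check those SEs. Sequences came from RefSeq's TAIR10.1 assembly through Biopython 1.88, where 27973 genes of the tables overlap their RefSeq gene. Figures used matplotlib 3.10.9.

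Members and lists were chosen with earlier results of these data known. All called members were named where 6 or fewer were called, and otherwise the 6 largest and 3 smallest called folds. Calls against the majority, members that differed between organs, all copies of 6 families and up to 2 rises and 2 falls per list with at least 1 FPKM were also eligible. The other named members (such as those not called in cotyledons at 6 h and the S3, S24e and L9 copies) were chosen after their values were seen. Alternatives were a stricter q-value, centred folds, another adjustment, a minimum of 5 FPKM, a pseudocount of 1 FPKM and the SE from the p-value.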

Additional observations from a re-analysis of the deposited data

Results flagged for a closer look

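The response of 13 results differed between cotyledons and hypocotyls by the test of the difference itself, at a Benjamini-Hochberg adjusted normal p under 0.05; values are cotyledon minus hypocotyl log2 folds. With 6 h of light against dark, the difference was 1.63 for RPL23AB (AT3G55280), 1.59 for the S3 gene AT3G53870 and 1.52 for the L4 gene AT5G02870. These 3 of the 43 genes were near the 6.62% of all genes with a larger fold in cotyledons. With centred folds RPL23AB alone of the set passed, against 5.70% of all genes with a larger fold in cotyledons. With the SE taken from the p-value 17 of the 43 passed, against 15.1%. In dark pifq against wild type 10 of the 43 differed, against 6.97% of all genes with a larger fold in hypocotyls. The difference was -2.38 for the L10 family gene AT2G40010, -1.53 for AT5G28060 and -1.51 for AT3G04920, both of S24e. RPL24A (AT2G36620) had -1.46, RPS15A (AT1G07770) -1.46, AT1G70600 -1.39 and the L38e gene AT2G43460 -1.39. RS27A (AT3G61110) had -1.28, RPS5B (AT2G37270) -1.21 and RPS18A (AT1G22780) -1.19. AT2G40010 moved in opposite directions. It had 7.50 FPKM in pifq and 16.7 FPKM in wild type cotyledons, and 7.90 FPKM in pifq and 3.38 FPKM in wild type hypocotyls. These levels were the lowest of the set, and the locus of this gene is shared with another gene.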

How the results depend on the processing

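No paired analysis was possible because the tables hold 1 value per group; for the same reason no sample could be left out. Of 87 recomputed values of 21 counts and medians, 78 kept their direction and stayed within the limits set, and none reversed. Counts that were 0 in every setting are among the 78, and the minimum of 5 FPKM changed no count. The count of genes that rose in cotyledons at 1 h was 1 at a q-value under 0.01 and 0 with centred folds and normal p-values, against 6 as reported. With centred folds and normal p-values, 0 of 3 rose in hypocotyls at 1 h, 4 of 8 rose at 6 h, and 0 of 1 fell at 6 h. Without the near copies (chosen after seeing the data), 0 fell in hypocotyls at 6 h. In pifq cotyledons 0 fell at a q-value under 0.01, against 1. Genes that differed between organs at 6 h of light numbered 1 with centred folds and 17 with the SE taken from the p-value, against 3. Of all genes compared, 5.70%, 15.1% and 6.62% had a larger fold in cotyledons in these settings. The light tables' p-values are less strict than their statistic; beyond that the cause was not tested. The rises in cotyledons at 6 h and in pifq hypocotyls stayed within 1.5 times their counts under each alternative run. The lowest counts were 26 against 39 in cotyledons, at that limit, and 17 against 24 in pifq hypocotyls. Protein identity was not run as a measure of near copies. Depth is unknown.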
